A study of Homo sapiens
Mus musculus and Homo sapiens with 21 samples.

Results

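HOX genes encode homeodomain transcription factors and lie in 4 clusters, A to D, in mammals. The genes examined were those whose symbol is HOX or Hox followed by a cluster letter and a paralog number. They came to 35 of 34058 human genes, whose transcripts come from the cancer cells, and 34 of 33043 mouse genes, whose transcripts come from the host. As background, paralogs with low numbers lie at the 3′ end of each cluster and are used furthest forward in the embryo, up to the hindbrain, while the forebrain does not use HOX genes. Paralogs with high numbers are used in the trunk, the limbs and the tail. Adult cells such as skin fibroblasts and brainstem neurons keep part of this positional pattern, and many carcinomas express HOX genes.

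The study examined H2030-BrM3, a brain-seeking derivative of the human lung adenocarcinoma line H2030, grown in brain, under the skin and in culture, together with the host tissue around it. Tumour-bearing hindbrain (n = 3) and tumour-bearing forebrain (n = 3) came from athymic nu/nu mice given the cells through the heart. Subcutaneous tumours (n = 4) came from mice of the same strain given the cells under the skin with growth factor reduced Matrigel, and the mice were 5 to 6 weeks old at injection. They were compared with monolayer culture of the same cells (n = 3), tumour-free hindbrain (n = 4) and tumour-free forebrain (n = 4). All animals lack a thymus, so they lack most T cells. Human results rest on this single cell line. Tumours were macrodissected together with the stroma around them, and the labels also give the cell line for tumour-free brain, without stating whether those mice had been injected. The labels do not state whether the samples of a group came from separate animals, so p-values measure the spread between these samples, which may be technical in part.

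The deposited RPKM values resolved into whole reads for every gene, which gives the depth. Libraries of tumour-bearing brain contained between 3579907 and 6897852 reads of human genes and between 52358082 and 86139353 of mouse genes. For subcutaneous tumours the ranges were 27253282 to 48152857 (human) and 2446513 to 3982107 (mouse). Monolayer libraries had 29579879 to 49599168 of human genes, and tumour-free brain 17747167 to 23034782 of mouse genes. Human HOX genes received 2 reads in all 8 tumour-free brain libraries together, and mouse Hox genes 6 reads in the 3 monolayer libraries. The first rate, pooled over both brain regions, predicts how many human HOX reads are mouse RNA assigned to human genes. It gives 2.45 of the 2539 in hindbrain metastases and 2.32 of the 2259 in forebrain metastases. Tumour-free hindbrain held both background reads and tumour-free forebrain 0, so a rate per region would differ. The brain labels matched their markers: in tumour-free hindbrain against tumour-free forebrain, 12 of 13 forebrain genes were lower and 10 of 10 cerebellar genes were higher. The 8 epithelial markers summed to 1695 to 2360 in brain metastases, 961.7 to 1112 in subcutaneous tumours and 366.9 to 403.6 in monolayer, in RPKM rescaled to a sum of 1000000 per library and organism. The 7 lung lineage genes found summed to 31.8 to 40.4, 29.7 to 36.3 and 24.4 to 27.3 in the same order. Of 7 epithelial markers tested, 4 were higher and 2 lower in brain metastases than in subcutaneous tumours, against 31.2% and 18.8% of all genes. Against monolayer 6 were higher and 1 lower in brain metastases and likewise in subcutaneous tumours, where 42.9% and 52.4% of all genes were called. NKX2-1, the transcription factor that defines lung epithelium, averaged 0.0206 in brain metastases, 0.0966 in subcutaneous tumours and 0.0700 in monolayer. KRT19 was at 0 in forebrain metastases, subcutaneous tumours and monolayer, and SFTPA1 and SFTPC were at 0 in brain metastases and monolayer. This scale, called rescaled RPKM here, is per length and is used for all levels below.

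In the cancer cells, HOXA3 and HOXC8 had the highest levels in every group. HOXA3 had 49.5, 42.0 and 56.7 in hindbrain metastases, 38.3, 56.3 and 48.6 in forebrain metastases, 45.0, 48.4, 45.2 and 53.2 in subcutaneous tumours, and 48.1, 46.5 and 43.4 in monolayer. HOXC8 had 19.9, 20.9 and 17.1 in hindbrain metastases, 18.8, 20.9 and 16.6 in forebrain metastases, 19.1, 17.9, 21.99 and 19.6 in subcutaneous tumours, and 19.5, 20.5 and 19.8 in monolayer. The groups overlapped for both genes. HOXC8 had log2 changes of -0.04 between brain metastases and subcutaneous tumours, -0.07 between brain metastases and monolayer, and -0.02 between subcutaneous tumours and monolayer. The order of these 2 genes depends on the gene length. The file's values imply 598 bases for HOXA3, whose annotated exons cover 4308 bases. Per kilobase of annotated exon and 1000000 reads, HOXC8 stood at 16.1 in hindbrain metastases and HOXA3 at 7.32, and HOXC8 was above HOXA3 in the other 3 groups too.

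HOXC6 followed, at 13.4 ± 2.26 in hindbrain metastases, 13.6 ± 2.13 in forebrain metastases, 15.2 ± 1.55 in subcutaneous tumours and 12.3 ± 0.586 in monolayer (SD, n = 3, 3, 4 and 3). HOXC10 averaged 10.8 ± 3.59, 11.8 ± 3.89, 9.33 ± 0.444 and 6.58 ± 0.387 in the same groups. HOXD9 had the highest level of cluster D and HOXB6 that of cluster B. In monolayer 3 members stood at 10 or more, 13 between 1 and 10, and 19 below 1, and in hindbrain metastases these counts were 4, 15 and 16. Summed over the 35 members, the level was 150.5 ± 13.2 in hindbrain metastases, 155 ± 12.6 in forebrain metastases, 158 ± 9.42 in subcutaneous tumours and 137 ± 3.75 in monolayer (SD). Paralogs 9 to 13, which serve the most posterior body regions, contributed 26.2 ± 6.75, 26.6 ± 3.61, 24.3 ± 0.613 and 21.6 ± 1.08 of these sums. In bulk RNA, fewer cells expressing a gene and less RNA per cell cannot be told apart.

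**Figure D1:**
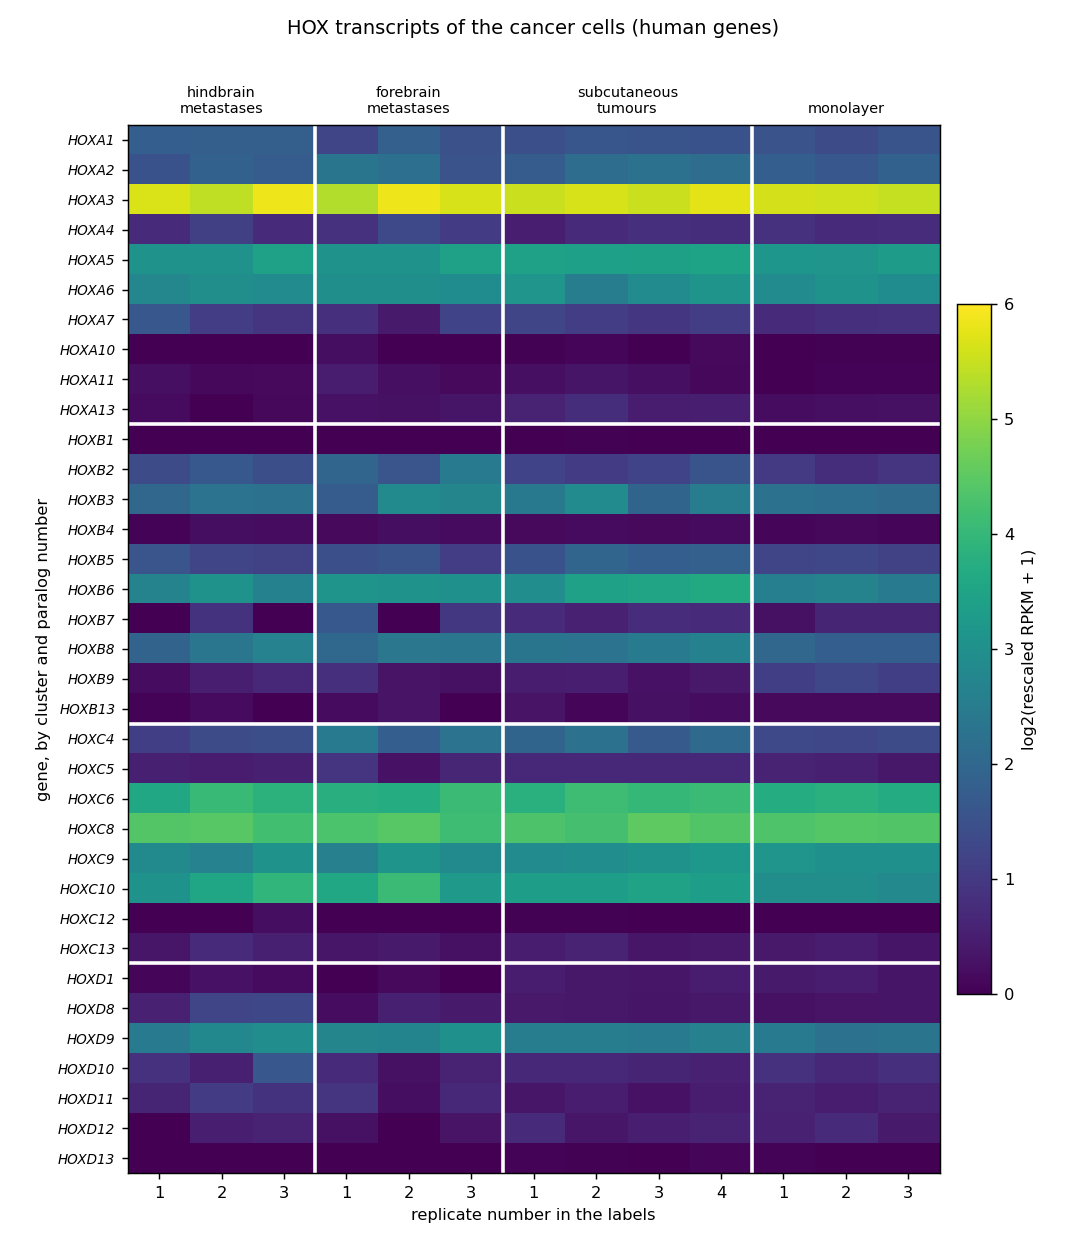
Level of each of the 35 human HOX genes (rows, by cluster and paralog number) in each library with cancer cells (columns, by group and replicate number), as log2 of rescaled RPKM plus 1. HOXA3 and the HOXC6 to HOXC10 stretch are bright in all 13 libraries, while HOXB1, HOXC12 and HOXD13 stay near 0.

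Of the 35 human members, 19 reached a rescaled RPKM of 1 in at least 3 of the 13 libraries and were tested, and 16 were not. Those 16 peaked at 2.13, for HOXB7 in a forebrain metastasis with 5 reads. HOXA13 had 13 reads in brain metastases, 218 in subcutaneous tumours and 64 in monolayer, and HOXC5 had 25, 168 and 99. HOXB1 and HOXD13 had no read in brain metastases. Most members share sequence with neighbours in the dense clusters. In 23 of 35, exon bases overlap another annotated gene, with shares of 32.9% for HOXB6, 17.5% for HOXC4, 9.66% for HOXC10, 3.93% for HOXB5 and 3.54% for HOXB2. The share was 0 for HOXB8, HOXB9, HOXC8 and HOXD9. Whether counting used the strand is not stated, so reads of overlapping genes cannot be told apart.

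Cluster B held most members that differed between groups, and its neighbours HOXB9, HOXB8 and HOXB5 did not move the same way. The promoter of HOXB8 is shown because this gene was called higher against monolayer in both kinds of tumour. It is the 250 bases before the annotated start in hg38 (GENCODE 44), on the minus strand at chr17:48615293-48615542. Capitals would mark matches, on either strand, to the PBX-HOX motif TGATNNAT, the CCAAT box CCAAT, the GC box GGGCGG, the TATA box TATAAA or the retinoic acid element of type DR5, and this window held 0.
HOXB8: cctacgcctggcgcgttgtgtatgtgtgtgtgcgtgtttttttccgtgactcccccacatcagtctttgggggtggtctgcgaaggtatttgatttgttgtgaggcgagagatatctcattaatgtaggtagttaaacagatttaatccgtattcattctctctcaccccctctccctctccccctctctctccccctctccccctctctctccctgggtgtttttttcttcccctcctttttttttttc
Over the windows of all 35 members, 6 (17.1%) held the PBX-HOX motif, against 837 of 20032 promoters (4.18%) of the same length. The CCAAT box was in 71.4% of HOX windows and 34.3% of all, the GC box in 45.7% and 59.0%, and the TATA box in 14.3% and 9.35%. The DR5 element, searched as an exact repeat of its half-site, was in 0 HOX windows and 0 of all. HOX windows had a median GC content of 57.6% against 63.2% in all, and a median of 15 CpG against 18. The motif shares were not adjusted for this composition. A match or its absence describes these letters only.

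Comparing brain metastases with subcutaneous tumours asks which transcripts differ between cancer cells in brain and the same cells under the skin. HOXB6 and HOXB5, mid-cluster genes used in the trunk, were lower in brain metastases, and HOXB2, a hindbrain patterning gene, was higher. These were 3 of 19 tested members, against 50% of all 14557 human genes tested (31.2% higher, 18.8% lower). The median log2 change was -0.08 over the tested members and 0.05 over all genes. HOXB6 had 5.47, 7.46 and 5.18 in hindbrain metastases, 7.60, 7.38 and 7.01 in forebrain metastases, and 6.64, 9.81, 10.3 and 11.5 in subcutaneous tumours. The groups overlapped through the first subcutaneous tumour alone, and the change was -0.45 (SE 0.13, limma adjusted p = 0.0110). HOXB5 had 1.99, 1.40 and 1.29 in hindbrain metastases, 1.76, 1.92 and 1.13 in forebrain metastases, and 1.84, 2.91, 2.46 and 2.57 in subcutaneous tumours. Here too the first subcutaneous tumour lay among the metastases, and the change was -0.42 (SE 0.14, limma adjusted p = 0.0211). HOXB2 had 1.60, 2.13 and 1.69 in hindbrain metastases, 2.90, 2.00 and 4.43 in forebrain metastases, and 1.30, 1.08, 1.29 and 1.95 in subcutaneous tumours. Its highest values were those of 2 forebrain metastases, and the change was 0.49 (SE 0.16, limma adjusted p = 0.0233). These levels rest on few reads: 63 for HOXB2, 97 for HOXB5 and 203 for HOXB6 over the 6 metastases.

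The 3 calls were not all kept when samples were left out or the fit was changed. HOXB6 lost its call without subcutaneous tumour 4 and in the test on recovered reads, with adjusted p between 0.000726 and 0.0522 over 20 alternatives. HOXB5 lost it under the replicate block and without subcutaneous tumour 2, 3 or 4 (0.0103 to 0.0785). The block joins equal replicate numbers over all groups of the fit. Whether the numbers of subcutaneous tumours or monolayer cultures pair with those of metastases was not examined. HOXB2 lost it with no filter and without subcutaneous tumour 1, 2 or 3 (0.00447 to 0.0766). With a filter of 0.1 in place of 1, 2 low members were also called lower in brain metastases: HOXA13, a gene of the distal limb and urogenital tract (log2 change -0.38, SE 0.09, limma adjusted p = 0.00312), and HOXD1 (-0.31, SE 0.07, limma adjusted p = 0.00493). HOXD1 ranged from 0 to 0.223 in brain metastases and from 0.289 to 0.397 in subcutaneous tumours, with no overlap. It rests on 5 reads over the 6 metastases, and 60.1% of its exon bases overlap other annotated genes.

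**Figure D2:**
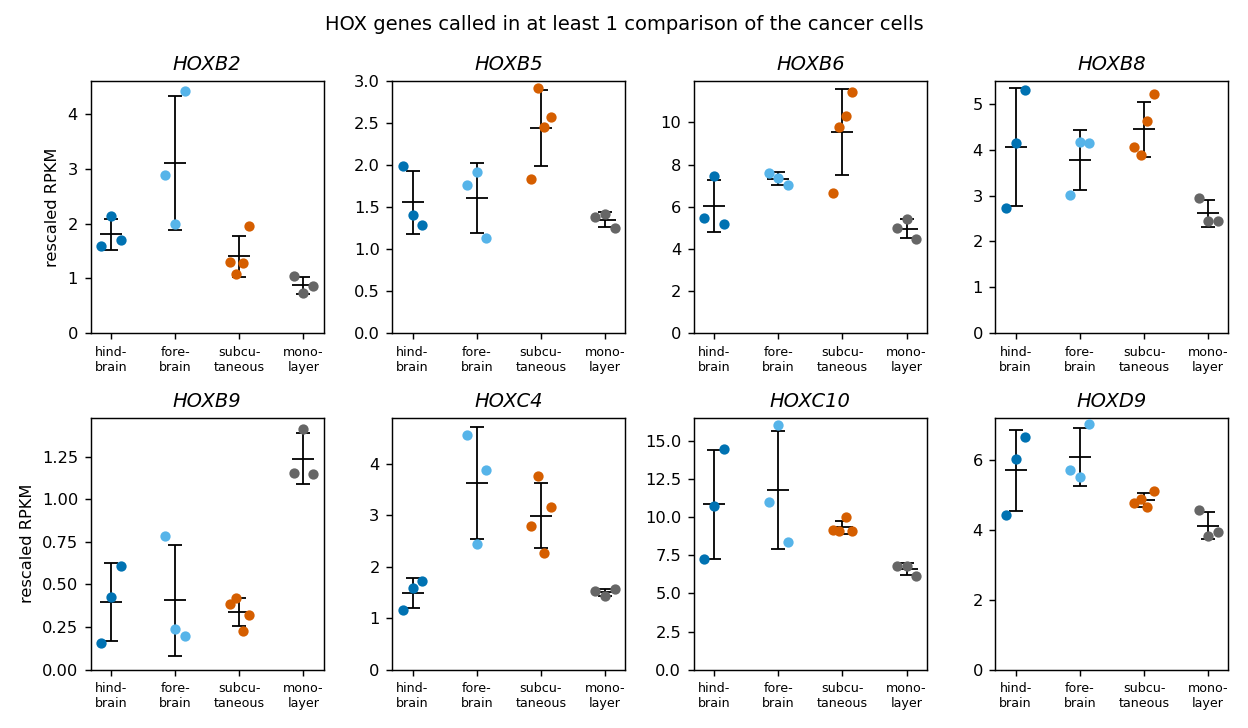
Rescaled RPKM (vertical axes, from 0) of the 8 HOX genes called in at least 1 comparison of the cancer cells, with each library as a point and bars for the mean and SD of each group (n = 3, 3, 4 and 3). HOXB6 and HOXB5 are highest under the skin, HOXB2 in forebrain metastases, and HOXB9 in monolayer, where all 3 points lie above the other 10.

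Brain metastases were next compared with monolayer, the cells from which both kinds of tumour were grown. HOXB2, HOXC10, HOXD9 and HOXB8 were higher in brain metastases, and HOXB9 was lower. These were 5 of 19 tested members, against 42.9% of all genes (21.9% higher, 21% lower), with a median change of 0.14 over the members and 0.01 over all genes. HOXB2 had 1.04, 0.727 and 0.856 in monolayer, below all 6 metastases given above, and was 0.84 higher on the log2 scale in metastases (SE 0.18, limma adjusted p = 0.00174). HOXC10, used in the hindlimb and lumbar region, had 7.28, 10.8 and 14.5 in hindbrain metastases, 11.0, 16.0 and 8.37 in forebrain metastases, and 6.81, 6.80 and 6.14 in monolayer. The groups did not overlap, and the change was 0.65 (SE 0.18, limma adjusted p = 0.00968). HOXD9 had 4.42, 6.02 and 6.65 in hindbrain metastases, 5.69, 5.51 and 7.03 in forebrain metastases, and 4.56, 3.83 and 3.95 in monolayer. It overlapped through 1 hindbrain metastasis, and the change was 0.42 (SE 0.12, limma adjusted p = 0.0104). HOXB8 had 2.73, 4.15 and 5.30 in hindbrain metastases, 3.02, 4.17 and 4.15 in forebrain metastases, and 2.95, 2.45 and 2.44 in monolayer. Its change of 0.43 (SE 0.16, limma adjusted p = 0.0396) lost its call in 12 of 19 alternatives, with adjusted p between 0.00567 and 0.131. HOXD9 lost its call without the second monolayer culture (range 0.00162 to 0.0573), and HOXB2 and HOXC10 kept theirs in all 19 alternatives. Leaving out monolayer culture 1, 2 or 3 left 3, 2 and 3 members called. In each of these fits HOXB9 failed the filter and was not tested. The number of all genes called fell too, from 6247 to 4789, 4712 and 4734.

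HOXB9, a posterior gene at the 5′ side of cluster B, showed the reverse pattern. It had 0.157, 0.427 and 0.611 in hindbrain metastases, 0.784, 0.240 and 0.199 in forebrain metastases, and 1.16, 1.41 and 1.15 in monolayer. The groups did not overlap. It reached 1 only in the 3 monolayer libraries, so it entered the test through the group where it is high. With a filter of 0.1, which it also passed elsewhere, it was 0.69 lower on the log2 scale in brain metastases (limma adjusted p = 0.00365). On log2(RPKM + 1) a change at this level is understated: on recovered reads the log2 change was -1.74. It rested on 28 reads in 6 brain metastases and 391 in monolayer.

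Subcutaneous tumours against monolayer asks what differs in the cells with growth under the skin. HOXB6, HOXC4, HOXB8 and HOXB5 were higher in subcutaneous tumours and HOXB9 was lower, which made 5 of 19 tested members against 52.4% of all genes (21.5% higher, 30.9% lower). The median change was 0.27 over the members and -0.05 over all genes. HOXB6 had 4.99, 5.40 and 4.49 in monolayer, below all 4 subcutaneous tumours given above, and was 0.80 higher in the tumours (SE 0.15, limma adjusted p = 0.000561). HOXB5 had 1.39, 1.41 and 1.25 in monolayer, again below all 4 tumours, and was 0.54 higher (SE 0.16, limma adjusted p = 0.0120). HOXB8 had 4.07, 3.88, 4.63 and 5.22 in subcutaneous tumours, above all 3 monolayer cultures, and was 0.59 higher (SE 0.17, limma adjusted p = 0.00914). HOXC4, the most anterior gene of cluster C, had 2.80, 3.77, 2.27 and 3.15 in subcutaneous tumours and 1.52, 1.43 and 1.57 in monolayer. It did not overlap either and was 0.66 higher (SE 0.18, limma adjusted p = 0.00611). HOXB9 had 0.386, 0.418, 0.229 and 0.323 in subcutaneous tumours, below all 3 monolayer cultures, and was 0.74 lower (filter of 0.1, limma adjusted p = 0.00288). In the main fit HOXB9 again entered the test through monolayer alone, so its call there is no support.

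Each of the 5 genes kept its call and direction in every alternative that could test it, 13 for HOXB9 and 16 for each of the others. The number called depended more on the method. When only these groups entered the fit, 12 of 18 members were called, beside 9442 of 13874 genes. Median-of-ratios scaling and quantile normalization each called 8 of 19 members, beside 7522 and 7540 of 14557 genes. On recovered reads 10 members were called, and the share of all genes there is not given here. HOXC6, HOXA5 and HOXC10 were the members added under both other scalings, all higher in subcutaneous tumours by 0.27, 0.22 and 0.45 in the main fit, where their limma adjusted p were 0.0719, 0.124 and 0.0704. Because both tumour comparisons use the same monolayer cultures, a shared direction between them is not independent.

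**Figure D3:**
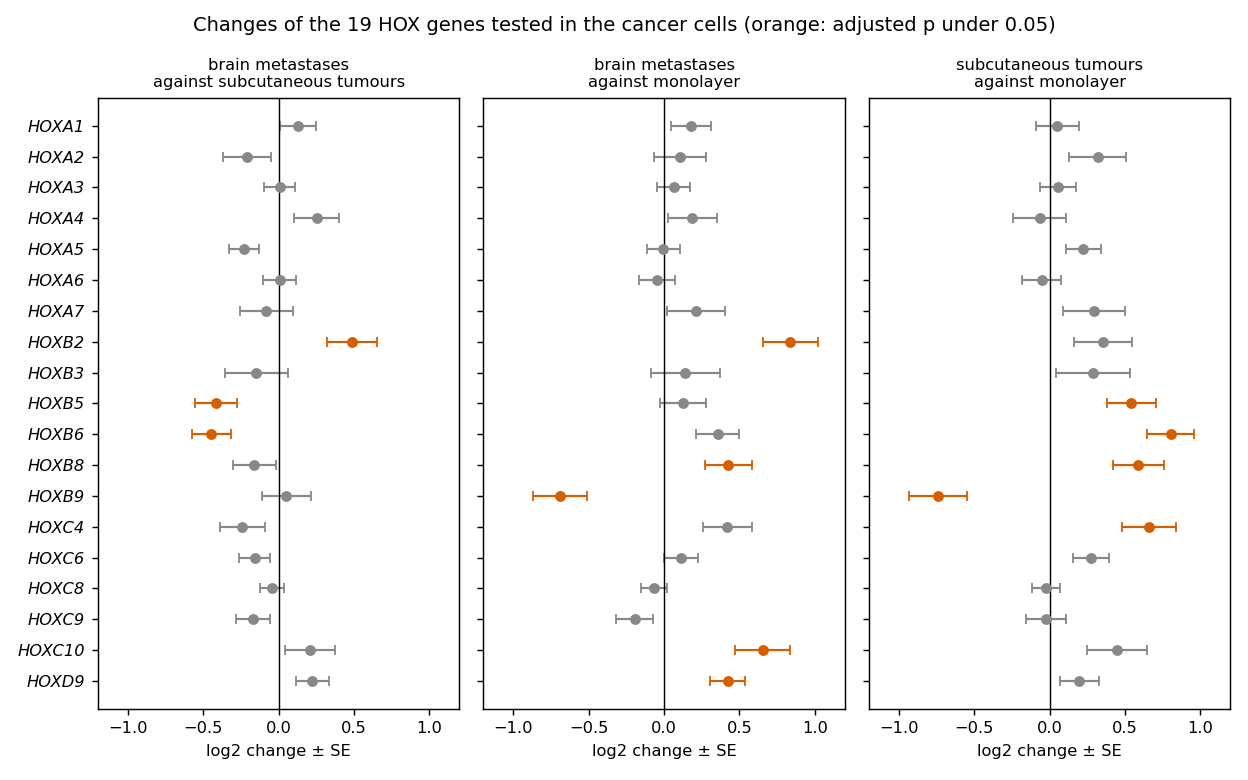
Log2 change with its standard error (horizontal axes) of the 19 human HOX genes tested, for brain metastases against subcutaneous tumours, brain metastases against monolayer and subcutaneous tumours against monolayer. Orange points have a limma adjusted p under 0.05, and most of them belong to cluster B.

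Hindbrain and forebrain metastases were compared to see whether the brain region in which the cells grew goes with their own HOX transcripts. None of 18 tested members was called by limma, against 0.29% of 13455 genes. At an unadjusted p under 0.05 there was 1, HOXC4, and the test on recovered reads called 0. How many of all genes reached that unadjusted threshold is not given here, so this count is not set against other genes. HOXC4 had 1.15, 1.59 and 1.72 in hindbrain metastases and 4.57, 2.44 and 3.88 in forebrain metastases. The values did not overlap, and the change was -0.87 (SE 0.26, limma adjusted p = 0.236). HOXC4 was the member called when all 13 human libraries shared the spread. HOXB2 had a change of -0.51 (SE 0.27) and HOXA7 of 0.39 (SE 0.33), and neither was called. HOXC4 had 10 to 31 reads per metastasis.

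Genes that work with HOX genes were examined as lists. The 9 TALE homeodomain genes encode the PBX, MEIS and PKNOX partners with which HOX proteins bind DNA. In brain metastases against subcutaneous tumours 5 of 9 were higher and 0 lower, against 31.2% of all genes higher and 18.8% lower, with a median of 0.23 beside 0.05. MEIS1 averaged 37.9 ± 6.90 in brain metastases and 15.1 ± 0.590 in subcutaneous tumours (SD, n = 6 and 4), a log2 change of 1.26 (SE 0.11, limma adjusted p = 6.72e-07). MEIS2 changed by 1.73, but MEIS2 reads from mouse brain assigned to human genes could make up 62.1% of its reads in hindbrain and 38.4% in forebrain metastases. After their subtraction the MEIS2 change was 0.72 (limma adjusted p = 0.000755), and that of MEIS1 1.09. MEIS2 averaged 20.8 ± 0.787 in hindbrain metastases and 38.4 ± 9.38 in forebrain metastases. That difference was called only after the subtraction (-1.53, limma adjusted p = 0.0130, against -0.83 and 0.0669 before). The subtraction used a rate pooled over both brain regions.

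Against monolayer, 5 TALE genes were higher and 1 lower in brain metastases, and 1 was higher and 1 lower in subcutaneous tumours, beside 42.9% and 52.4% of all genes called in these comparisons. MEIS3 was the lower gene both times, by 0.73 in brain metastases and 0.96 in subcutaneous tumours. Polycomb genes, whose products keep HOX genes silent, split in both directions. Of 19 tested, 7 were higher and 3 lower in brain metastases against subcutaneous tumours, a share called near the 50% of all genes, and the largest changes were those of SUZ12 (0.56), PHF19 (0.54), RNF2 (0.50) and EZH2 (0.42). Of 14 Trithorax and MLL group genes, whose products keep HOX genes active, 7 were higher and 2 lower, against 31.2% and 18.8% of all genes, among them PSIP1 (0.51), DPY30 (0.44), MEN1 (0.41) and the methyltransferase gene DOT1L (-0.42). In subcutaneous tumours against monolayer 5 Polycomb genes were higher and 6 lower, and 5 Trithorax genes were higher and 5 lower, beside 52.4% of all genes called. PHF19 was lower by 0.76, SUZ12 by 0.54, RNF2 by 0.53, PSIP1 by 0.61 and DPY30 by 0.55, while CBX8 was higher by 0.49 and KDM6B by 0.89.

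Retinoic acid, made from vitamin A, induces HOX genes in embryos. In brain metastases against subcutaneous tumours 3 of 13 tested were higher and 4 lower, a share called near the 50% of all genes. STRA6, the vitamin A uptake receptor, averaged 4.88 ± 2.90 in brain metastases and 0.357 ± 0.171 in subcutaneous tumours (log2 change 1.98, SE 0.17, limma adjusted p = 6.06e-07). CYP26A1, which degrades retinoic acid, averaged 28.0 ± 7.44 in brain metastases and 14.999 ± 2.33 in subcutaneous tumours, with 4.44 ± 0.338 in monolayer. It was higher by 0.83 against subcutaneous tumours and by 2.38 against monolayer. DHRS3, a retinal reductase that lowers retinoic acid formation, averaged 2.20 ± 1.61 in brain metastases, 1.58 ± 0.320 in subcutaneous tumours and 11.8 ± 0.316 in monolayer. It was lower than in monolayer by 2.16 in brain metastases and by 2.31 in subcutaneous tumours. CRABP2, a carrier of retinoic acid to the nucleus, averaged 0.784 ± 0.423 in brain metastases and 2.71 ± 0.565 in subcutaneous tumours. It was lower by 1.08 in brain metastases. Of 6 tested noncoding RNAs of the HOX clusters, HOTAIRM1 was lower in brain metastases against subcutaneous tumours (-0.57, limma adjusted p = 0.00725), and none was higher. HOXC-AS1 was lower than in monolayer by 0.69 in brain metastases and by 0.79 in subcutaneous tumours, and HOXA-AS2 was higher by 0.71 and 0.59.

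In the host, Hox transcripts were near 0 in forebrain, present in hindbrain and present, with other members, in subcutaneous stroma. Summed over the 34 mouse members, the level was 104 ± 28.2 in subcutaneous stroma, 75.2 ± 16.0 in tumour-bearing hindbrain, 125 ± 48.5 in tumour-free hindbrain, 0.157 ± 0.0553 in tumour-bearing forebrain and 0.199 ± 0.0886 in tumour-free forebrain (SD, n = 4, 3, 4, 3 and 4). No read fell on 4 members in subcutaneous stroma, 8 in tumour-bearing hindbrain, 7 in tumour-free hindbrain, 20 in tumour-bearing forebrain and 27 in tumour-free forebrain. Human RNA assigned to mouse genes is predicted to give 7.57 of the 1908 Hox reads in subcutaneous stroma and 0.768 of the 19288 in tumour-bearing hindbrain. Paralogs 9 to 13 summed to 16.6 ± 8.93 in subcutaneous stroma, 0.117 ± 0.0295 in tumour-bearing hindbrain and 0.494 ± 0.780 in tumour-free hindbrain. The tumour-free values were 0, 0.0486, 1.65 and 0.278, so the third library sets that mean. Tumour-free forebrain had no read of them. Mouse and human values were scaled within each species and are not compared with each other.

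**Figure D4:**
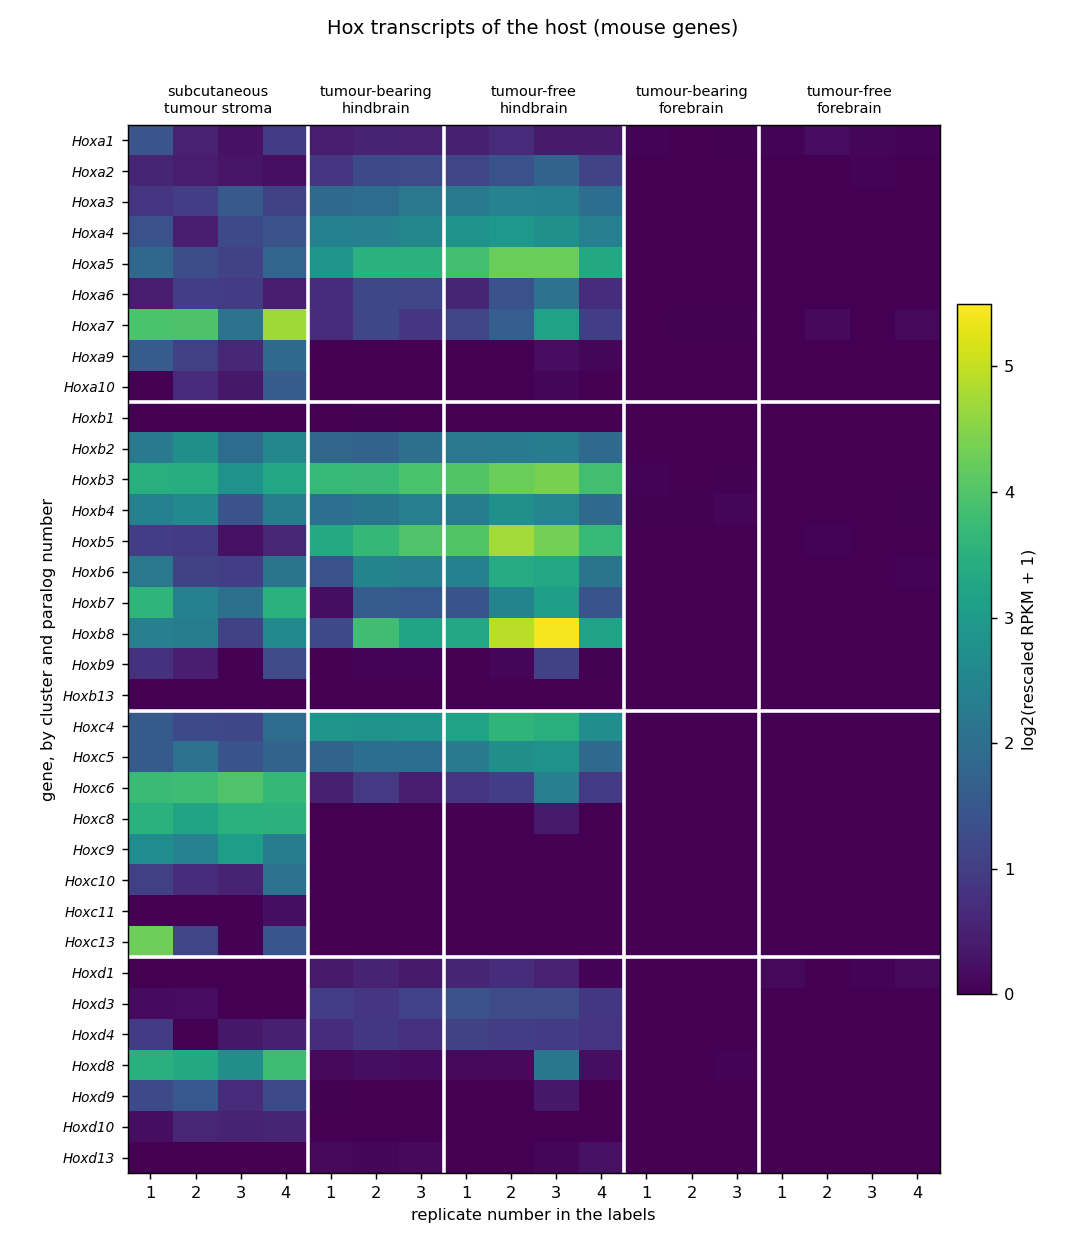
Level of each of the 34 mouse Hox genes (rows, by cluster and paralog number) in each library with host RNA (columns), as log2 of rescaled RPKM plus 1. Both forebrain groups are dark for every gene, both hindbrain groups are bright for Hoxb2 to Hoxb6, Hoxa3 to Hoxa5, Hoxc4 and Hoxc5 and near 0 for Hoxc8, and subcutaneous stroma adds Hoxc8 to Hoxc10, Hoxd8, Hoxd9 and Hoxa9.

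Tumour-free hindbrain against tumour-free forebrain gives the regional pattern without tumour. Hoxb8, which marks the most caudal part of this set, had 8.79, 29.6, 42.1 and 8.02 in tumour-free hindbrain and no read in tumour-free forebrain. It was at least 484-fold higher, with the forebrain floor set at 3 reads over the group. Hoxb5 had 15.1, 25.8, 19.5 and 11.8 in tumour-free hindbrain and 1 read in forebrain. Hoxb3, a gene of hindbrain segments, had 14.99, 18.2, 19.9 and 13.2 in hindbrain and no forebrain read, at least 405-fold higher. Hoxa5 had 13.3, 18.2, 18.2 and 8.91 and no forebrain read, at least 528-fold higher. Hoxc4 had 8.13, 11.1, 10.1 and 5.48 and none, at least 342-fold higher. These genes were present in every hindbrain library and at or near 0 in every forebrain library. The highest member of cluster D, Hoxd3, had 1.67, 1.38, 1.44 and 0.859 in hindbrain, at least 60.2-fold higher.

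All 15 members that could be tested were called higher in tumour-free hindbrain, where 30% of all genes were higher and 49.2% were called. They passed the filter through hindbrain alone and so had to differ, and 19 members were not tested. With a filter of 0.1, 20 of 21 tested were called. In tumour-bearing brain 11 of 11 tested members, again passing through hindbrain alone, were higher in hindbrain than in forebrain, against 33.5% of all genes higher and 52.8% called. The other 23 were not tested. Hoxc4 had 6.46, 5.98 and 6.51 in tumour-bearing hindbrain and no read in tumour-bearing forebrain, at least 609-fold higher. Hoxb8 lost its call in tumour-bearing brain when any 1 of the 3 forebrain metastases was left out, with adjusted p from 0.000797 to 0.0780 over 12 alternatives. Among the other lists, tumour-free hindbrain had more of the HOX cofactor gene Meis1 (1.74), of Pbx3 (0.91), of the Hoxa cluster RNA Hotairm1 (2.05) and of Evx1 (1.44), which neighbours the Hoxa cluster. It had less of Pknox2 (-1.06) and Pbx4 (-0.67). Of 16 retinoic acid pathway genes 8 were higher and 3 lower, with Aldh1a1, a retinoic acid synthesizing enzyme, at 138 ± 13.6 in tumour-free hindbrain and 30.2 ± 7.14 in tumour-free forebrain, and the receptor gene Rxrg at 2.48 ± 0.466 and 18.6 ± 1.90.

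Tumour-bearing was set against tumour-free tissue to ask whether host Hox transcripts change where metastases grow. In forebrain 0 of 16 tested members were called by limma, 0 had an unadjusted p under 0.05 and the test on recovered reads called 0, against 30.4% of all genes called. Forebrain levels were at or near 0 in both groups, so decreases were not detectable there. Summed over the 34 members they were 0.157 ± 0.0553 with tumour and 0.199 ± 0.0886 without (SD, n = 3 and 4), so no increase was seen. In hindbrain 0 of 16 were called by limma and 0 on recovered reads, against 3.25% of all genes called (2.92% higher, 0.33% lower). At an unadjusted p under 0.05 there were 12. The share of all genes at that unadjusted threshold is not given here, so this count is not set against other genes. All 16 log2 changes were negative, from -1.46 to -0.18, under each scaling tried, with a median of -0.36 beside -0.01 over all genes. The smallest adjusted p was 0.158, and members share the cells they come from, so their common sign is not 16 observations. Without tumour-free hindbrain 4, 3 members were called lower, Hoxa5, Hoxc4 and Hoxc5. That library had the lowest sum of the 34 members among tumour-free hindbrains (95.1, 153, 178 and 73.9 for numbers 1 to 4). It also had the lowest tumour-free hindbrain value of each of these 3 genes. The share of all genes called without it is not given here. The difference of the tumour effect between the regions called 0 of 16 (2 at an unadjusted p under 0.05, 0 on recovered reads), against 0.456% of all genes (0.203% higher, 0.254% lower).

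Hoxb8 had the largest estimate in hindbrain and the widest spread. It had 1.31, 13.1 and 8.30 in tumour-bearing hindbrain and 8.79, 29.6, 42.1 and 8.02 in tumour-free hindbrain, a change of -1.46 (SE 0.62, limma adjusted p = 0.290). Relative to Hoxb3 it was 0.110, 1.08 and 0.581 in tumour-bearing hindbrain and 0.586, 1.63, 2.12 and 0.608 in tumour-free hindbrain. Hoxa5 had 6.26, 10.5 and 10.6 in tumour-bearing hindbrain and 13.3, 18.2, 18.2 and 8.91 in tumour-free hindbrain, a change of -0.62 (SE 0.21, limma adjusted p = 0.158). Both genes overlapped between the groups, as did every tested member. Tumour-free hindbrains 2 and 3 held the highest hindbrain value of 15 of the 16 members, and hindbrain 3 that of 9.

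Marker lists of neighbouring tissue and of other cells were summed beside these values. The 13 forebrain regional genes summed to 38.6 to 46.4 in tumour-bearing hindbrain and 47.7 to 76.9 in tumour-free hindbrain, without overlap, with a median log2 change of -0.48 and 0 called by limma. The 12 brainstem genes summed to 112.6 to 166 in tumour-bearing hindbrain and 121 to 234 in tumour-free hindbrain, and 1 of 11 tested was called, higher. The 5 spinal and medullary genes summed to 182 to 230.3 in tumour-bearing hindbrain and 219 to 279 in tumour-free hindbrain, with 0 called. The 10 cerebellar genes summed to 1950 to 2806 in tumour-bearing hindbrain and 1264 to 2894 in tumour-free hindbrain, with 0 called. The 8 leukocyte markers summed to 98.2 to 111 in tumour-bearing hindbrain and 35.8 to 54.8 in tumour-free hindbrain, and 4 of 6 tested were higher. No gene of these lists was at 0 in either group. The part of dissection or of infiltrating cells in the Hox values was not tested.

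**Figure D5:**
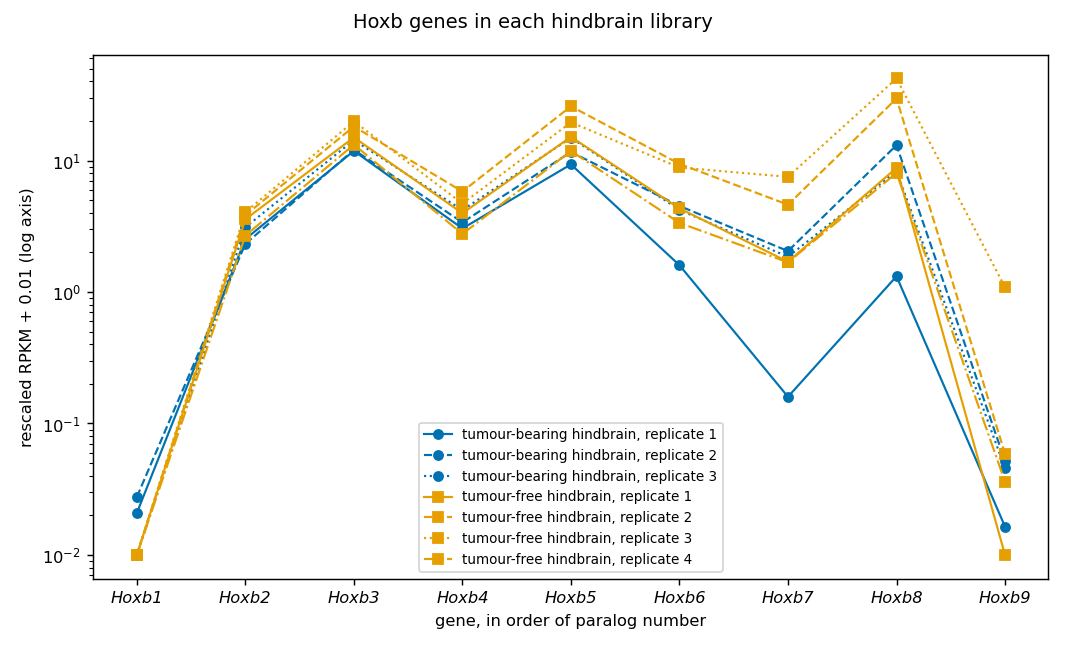
Rescaled RPKM plus 0.01 (log axis) of Hoxb1 to Hoxb9 in each of 3 tumour-bearing hindbrain libraries (blue circles) and 4 tumour-free hindbrain libraries (orange squares). The libraries lie close together from Hoxb2 to Hoxb4 and spread apart at Hoxb7 and Hoxb8, where the first tumour-bearing hindbrain is lowest at 1.31 for Hoxb8 and the third tumour-free hindbrain highest at 42.1.

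Stroma of subcutaneous tumours was compared with tumour-bearing brain, the mean of hindbrain and forebrain, to describe the host tissue of each site. Of 21 tested members 13 were higher in subcutaneous stroma and 1 was lower, against 80.7% of all 16814 genes called (33.5% higher, 47.1% lower). Of these, 9 reached 1 in at least 3 libraries through subcutaneous stroma alone (Hoxa7, Hoxa9, Hoxb7, Hoxc6, Hoxc8, Hoxc9, Hoxc13, Hoxd8 and Hoxd9), so they had to differ and their calls are no support. Hoxb5 passed through hindbrain alone, and Hoxa6 only over the libraries of both sites together. Of the 10 that passed in each site, 4 were called higher, 0 lower and 6 were not called. The median change of all genes was -0.26, and 0.01 after quantile normalization. Hoxc6, a thoracic and forelimb gene, had 12.5, 12.8, 14.8 and 11.7 in subcutaneous stroma and 0.399, 0.874 and 0.361 in tumour-bearing hindbrain, with no forebrain read. It did not overlap and was 3.49 higher on the log2 scale. Hoxc8 had 10.4, 8.26, 10.4 and 10.5 in subcutaneous stroma and no read in tumour-bearing hindbrain, at least 508-fold higher (3 reads over the group). Hoxc9 had 5.36, 4.41, 7.37 and 4.06 in subcutaneous stroma and was at least 400-fold higher than in tumour-bearing hindbrain. Hoxd8 had 10.3, 8.93, 5.58 and 12.7 in subcutaneous stroma and 0.0884, 0.144 and 0.110 in tumour-bearing hindbrain, and was 3.24 higher. Hoxa7 had 14.3, 14.6, 3.17 and 25.2 in subcutaneous stroma and 0.616, 1.25 and 0.828 in tumour-bearing hindbrain, and was 3.20 higher. For these 5 genes every subcutaneous value lay above every tumour-bearing hindbrain value. They are among the 9 that passed through subcutaneous stroma alone, so this separation is no support either.

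Of the other members that passed through subcutaneous stroma alone, Hoxb7 had a change of 2.34, Hoxa9 of 1.28 and Hoxd9 of 1.15. The 4 called among those that passed in each site were Hoxb2 (1.45), Hoxb3 (1.34), Hoxb4 (1.09) and Hoxc5 (0.74). Hoxb3, Hoxb4 and Hoxc5 lost their call when forebrain and hindbrain were averaged by number, with adjusted p up to 0.110 for Hoxb3, 0.941 for Hoxb4 and 0.273 for Hoxc5 over the alternatives. Against hindbrain alone the changes were -0.53 for Hoxb3, 0.02 for Hoxb4 and -0.21 for Hoxc5. Hoxc13, used in hair follicles and nails, had 18.4, 1.23, 0 and 1.77 in subcutaneous stroma. Its first tumour held 157 of 182 reads, and its call (1.72, limma adjusted p = 0.0380) was lost in 10 of 18 alternatives, with adjusted p from 0.000511 to 0.117. Hoxb5 was the member called lower, with 0.984, 0.903, 0.182 and 0.496 in subcutaneous stroma and 9.34, 11.6 and 14.9 in tumour-bearing hindbrain. Its change of -1.15 (SE 0.18, limma adjusted p = 0.000151) averages hindbrain with a forebrain near 0. Hoxb5 entered the test through the 3 hindbrain libraries alone, and on recovered reads its change was 1.48 (limma-voom adjusted p = 0.0439, range 4.24e-07 to 0.0968 over the alternatives).

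Since forebrain lacks Hox RNA, subcutaneous stroma was also set against tumour-bearing hindbrain alone, a comparison added after the data were seen, in which 76.8% of all genes were called. Hoxb5 was lower in subcutaneous stroma by 2.99, Hoxa5 by 1.79, Hoxc4 by 1.40, Hoxa4 by 1.32, Hoxa3 by 0.88 and Hoxb3 by 0.53. Hoxa5 had 2.61, 1.45, 1.14 and 2.48 in subcutaneous stroma and 6.26, 10.5 and 10.6 in tumour-bearing hindbrain, without overlap. Hoxc8 (3.44), Hoxc6 (3.18), Hoxd8 (3.17), Hoxa7 (2.76), Hoxc9 (2.63), Hoxb7 (1.79), Hoxa9 (1.28), Hoxd9 (1.15) and Hoxb2 (0.52) were higher. All of the higher members but Hoxb2 had passed through subcutaneous stroma alone and Hoxb5 through hindbrain alone, so these calls are no support either. Of the 10 that passed in each site, Hoxa3, Hoxa4, Hoxa5, Hoxb3 and Hoxc4 were lower and Hoxb2 was higher. The changes of Hoxb8 (-0.64), Hoxb6 (-0.47), Hoxc5 (-0.21) and Hoxb4 (0.02) were not called, nor was that of Hoxa6 (-0.31).

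Other lists describe the cells of that stroma. The 8 fibroblast markers summed to 36957 to 75393 in subcutaneous stroma and 559.4 to 653.3 in tumour-bearing brain, and 7 of 8 were higher and 1 lower. All 6 skeletal muscle markers were higher, with sums of 913 to 1775 in subcutaneous stroma and 4.35 to 6.97 in tumour-bearing brain. All 5 skin epithelium markers were higher, but their sum was 2.15 in the third subcutaneous tumour and 2402, 3458 and 3856 in the others. All 6 leukocyte markers tested were higher too, and no gene of these 4 lists was at 0 in any of the 3 groups. The share of each cell type in the Hox values was not tested. Of the 9 TALE genes 7 were lower and 1 higher in subcutaneous stroma, where 47.1% of all genes were lower, with Meis2 lower by 3.59, Pknox2 by 3.02 and Pbx4 by 2.71, and Pknox1 higher by 0.59. Of 16 retinoic acid pathway genes 8 were higher, among them Aldh1a3 (3.66) and Rarg (2.55), and 5 were lower, among them Rxrg (-2.78).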

How the data were processed

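RNA of human cancer cells and mouse host was sequenced together in 21 libraries of 6 groups. The authors deposited RPKM values per gene, in 1 table per species. The submitters' processing notes name hg38, GRCh38, mm10 and GRCm38. For the aligner, the counter and the use of strand, the tool or setting is not given in the sources used here. The members and gene lists were chosen with earlier results of these data known.

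Each library's RPKM values were rescaled to a sum of 1000000 within each species. Whole reads were recovered from the steps of the values (tolerance 0.02 of a read, 100% of genes above 0), and these give the depths. Counting error and floors (3 reads) cover counting only. Genes at 1 or more in at least 3 libraries of a fit were tested with limma 3.58.1 (trend, robust; R 4.3.3) on log2(value + 1). P-values were adjusted by Benjamini-Hochberg over all genes of the fit and called below 0.05. Fold changes on this scale understate changes of low genes. Brain metastases are the mean of hindbrain and forebrain metastases. Human fits held 13 libraries (6 for hindbrain against forebrain), brain fits 14 or 8 and the stroma fit 10. The scripts were tested on simulated data. Python 3.11.15, NumPy 2.4.6, pandas 2.3.3 and matplotlib 3.10.9 were used.

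Alternatives were a pseudocount of 0.1, a filter of 0.1 or none, median-of-ratios scaling, quantile normalization, other sets of libraries in the fit, a replicate block, each library left out, subtraction of the other species' reads, and voom on recovered reads. The stroma contrast with hindbrain alone, and a block that also holds tumour status, were chosen after seeing the data. Replicates differed beyond sampling noise (chi-square per degree of freedom 2.68 to 24.0 over 15 human pairs and 10.1 to 60.3 over 24 mouse pairs). Same-numbered tumour-bearing hindbrain and forebrain deviated together in mouse genes (correlations 0.222 to 0.430, all over 0.1), so these numbers pair. In human genes same-numbered correlations were 0.0352 to 0.0692, all under 0.1 but above the -0.0611 to 0.0119 of other numbers. Human and mouse reads come from the same libraries, so any pairing by animal holds for both. In tumour-free brain the correlations were -0.0681 to 0.363, beside -0.303 to 0.306 for other numbers. The main fits held no replicate block, so they treat same-numbered samples as independent. Every member may be named, with values per library for called members, up to the 10 largest changes, and for the highest of each cluster. Other lists are given by counts with up to 4 of the largest called changes, and all TALE genes may be named. Promoters were read from hg38 with GENCODE 44 and mouse sequences were not used here. Some genes of the lists and some promoters are not reported here.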

Additional observations from a re-analysis of the deposited data

Results flagged for a closer look

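Of 83 groups of 4 or 6 values, 8 had a sample set apart from the others by the gap rule of Dixon at 95%. Chance alone flags about 1 in 20 groups. In tumour-free hindbrain it was the third library each time: Hoxa7 was 8.10 there and 1.02 to 2.11 in the others, Hoxc6 was 4.26 and 0.783 to 0.985, Hoxd8 was 3.48 and 0.0798 to 0.144, and Hoxb9 was 1.07 and 0 to 0.0486. In subcutaneous stroma, Hoxc13 was 18.4 in the first library and 0 to 1.77 in the others, and Hoxc8 was 8.26 in the second and 10.4 to 10.5 in the others. In the cancer cells, HOXC10 was 9.998 in the third subcutaneous tumour and 9.09 to 9.15 in the others, and HOXD10 was 2.08 in the third hindbrain metastasis and 0.204 to 0.804 in the other metastases.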

How the results depend on the processing

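Most results kept direction and side of the threshold: of the counts of members called, 159 of the alternative values stayed within 1.5 times and 16 did not, and of single genes 851 kept their call, 41 lost it and 3 reversed. For brain metastases against subcutaneous tumours (3 called), a filter of 0.1 gave 5 and quantile normalization 7. Leaving out each library gave 1 to 4, with 1 without subcutaneous tumour 2, 3 or 4. For brain metastases against monolayer (5 called), leaving out each library gave 2 to 6. For subcutaneous tumours against monolayer (5 called), median-of-ratios scaling gave 8, quantile normalization 8, only the groups compared 12 and voom 10. With only the groups compared, 9442 of 13874 genes were called, beside 7635 of 14557 in the main fit. For hindbrain against forebrain metastases (0 called), a fit of all 13 human libraries gave 1. For tumour-bearing against tumour-free hindbrain (0 called), leaving out each library gave 0 to 3, with 3 without tumour-free hindbrain 4. Among tumour-free hindbrains that library had the lowest Hox sum. For tumour-bearing hindbrain against forebrain (11 called), a filter of 0.1 gave 20 and no filter 21, and without any 1 hindbrain metastasis no member could be tested. In stroma against tumour-bearing brain, Hoxb5 reversed to 1.48 with voom, and with hindbrain alone Hoxb3 reversed to -0.53 and Hoxc5 to -0.21. The main contrast averages hindbrain with forebrain. Hoxb3 averaged 12.7 in tumour-bearing hindbrain, 0.0225 in tumour-bearing forebrain and 8.62 in subcutaneous stroma. Hoxc5 averaged 2.76, 0 and 2.30 in the same groups. Why the other counts and calls moved was not tested.

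The replicate block joined equal numbers across all groups of a fit, and pairing was examined only between the brain regions. With the replicate block, 2 members were called for brain metastases against subcutaneous tumours (HOXB5 was lost), 6 against monolayer (HOXB6 was added) and 13 in stroma against brain (Hoxc13 was lost), and no other count changed. The median log2 change of all genes in stroma against brain was -0.26, and -0.18 with median-of-ratios scaling and 0.01 with quantile normalization. Several human HOX genes rest on few reads in metastases, and forebrain Hox levels are near 0. Calls at low levels depend on the filter. The 16 untested human members were too low for the filter of 1.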
